A study of Mus musculus with 111 samples.

Results

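Gm26461 is a small RNA entry that reached its highest levels in cauda epididymis, the tail of the duct in which sperm mature and are stored. It was examined as 1 of 1268 named entries in a table of small-RNA read counts, and as 1 of the 1042 entries, called features, that remained after entries listing the same reads under another name were removed. It was selected on measured values of these data, its level in cauda, sperm and caput and its difference between low-protein and control hearts, so those values are given as a description with no test. The table covers 111 mouse libraries of small RNA. They were made by OTTR-seq, whose reverse transcriptase adds both adapters as it copies the molecule. Mice were kept for 6 months on a low-protein diet of 10% protein or its control diet of 18%, or on a high-fat diet, in which fat gave 60% of the calories, or a high-fat control diet, in which it gave 7.2%. Liver, heart, testis, caput epididymis (the head of the duct), cauda epididymis and sperm from the cauda were taken, with 4 or 5 libraries in each of the 24 groups of tissue and diet. The labels give no strain, age or genotype and do not say which libraries come from separate animals, so a p-value here refers to the spread between libraries, which may be technical in part.

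In the annotation, Gm26461 (ENSMUSG00000092805.2, class misc_RNA) is a gene of 290 bases at chr9:88553236-88553525 on the plus strand of GRCm38, the assembly also called mm10. It lies in an intron of Zfp949 (chr9:88548020-88571061, plus strand), a gene named as a zinc finger protein: all 5 annotated transcripts of that gene span it and 0 of their exons overlap it. Its sequence resembles 7SL RNA, the RNA of the signal recognition particle. That particle binds the signal peptide of a protein as it leaves the ribosome, pauses its synthesis and brings the ribosome to the endoplasmic reticulum. RNA polymerase III makes 7SL RNA in all cells, and mammalian genomes hold a few active genes and many copies of part or all of the sequence. Mouse Rn7s1 and Rn7s2 are 7SL genes, each of 300 bases, at chr12:69159295-69159594 on the plus strand and chr12:69361182-69361481 on the minus strand.

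The annotated RNAs of Gm26461 and of Rn7s1, and a hairpin annotated in the far end of Rn7s1, Gm47295, were aligned because the counts of these 3 entries belong together. Gm26461 and Rn7s1 share 104 bases at their 5′ start without a difference. Beyond this shared start, the alignment ran to base 201 with 7 substitutions. The last 89 bases of Gm26461 did not align with Rn7s1. Gm47295 (chr12:69159518-69159596, plus strand), annotated as a miRNA hairpin of 79 bases, shares 77 of them with bases 224 to 300 of Rn7s1, and that stretch is not in Gm26461. Rn7s6 (chr6:69516339-69516629, plus strand), another 7SL copy in the table, shared only its first 7 bases with Gm26461 before a difference, and matched it at 191 of the first 201.

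**Figure D1:**
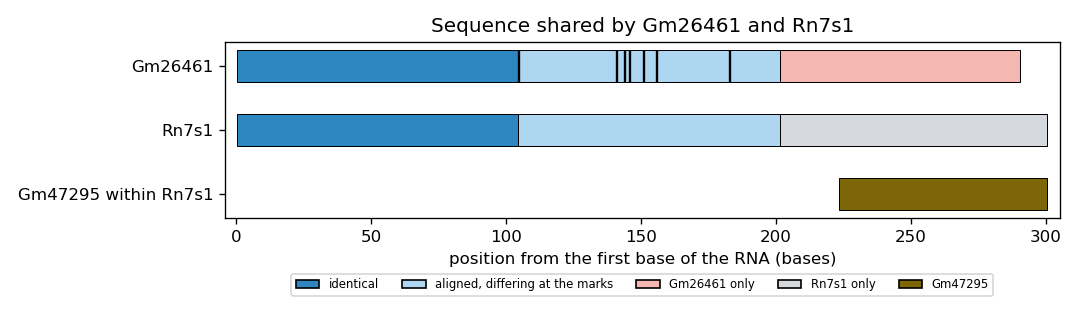
Bars show Gm26461, Rn7s1 and the part of Rn7s1 that holds Gm47295, with position from the first base of each RNA on the x axis. Gm26461 and Rn7s1 are identical over 104 bases and differ at 7 marked positions up to base 201, and Gm47295 begins at base 224 of Rn7s1.

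The counts of Gm26461 cannot be separated from those of Rn7s1 and Rn7s2. Rn7s1 had 339296 reads over all libraries and Rn7s2 had 339281, a difference of 15 reads, and Rn7s1 had at least as many reads as Gm26461 in 111 of 111 libraries. Gm26461 had 173448 reads and Gm47295 had 158632, and their sum came to 97.9% of the reads of Rn7s1. In single libraries the sum came to between 85.3% and 100% of Rn7s1, with a median of 99.0%, and it lay within 10% of Rn7s1 in 107 of 111. The other 4 were sperm libraries, with 85.3% to 87.0%. By tissue, the sum came to 98.0% of Rn7s1 in cauda, 92.6% in sperm, 99.5% in liver, 99.3% in caput, 99.1% in heart and 98.9% in testis. In number, the reads listed for Rn7s1 were therefore nearly those of Gm26461 and Gm47295 together. Neither the positions of reads nor the way multi-copy reads were counted is given in the sources used here, so the values below are those of the entry named Gm26461 and not of transcription at its locus on chromosome 9. Since Rn7s1 stays among the features, any read listed under both names is also counted under both in the total of a library.

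**Figure D2:**
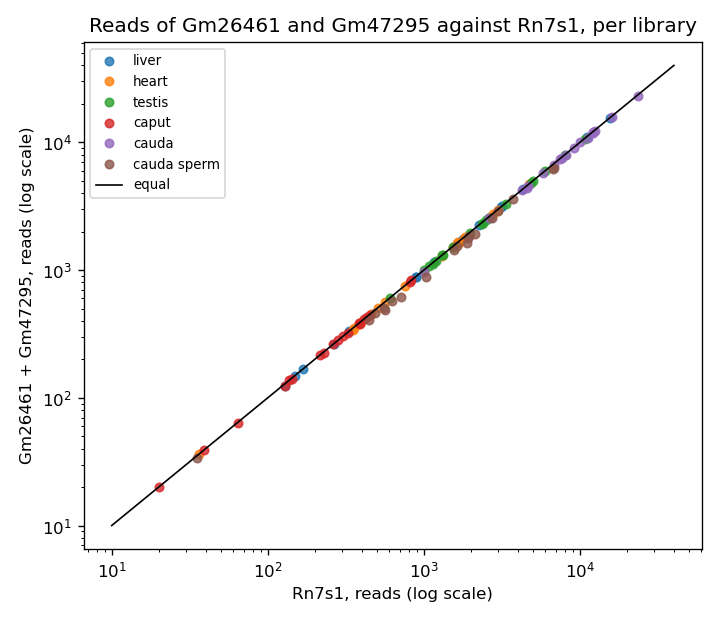
Each point is 1 library, with its reads of Rn7s1 on the x axis and its summed reads of Gm26461 and Gm47295 on the y axis, both on a log scale; the line marks equality and colours mark tissues. The points follow the line, with 4 sperm libraries at 85.3% to 87.0% of it.

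Depth limits what can be read from the smaller libraries. Reads over the features ran from 827 to 1467880 per library, with a median of 59904, and 3 libraries held under 5000 (high-fat liver replicate 3 and low-protein caput replicates 2 and 3). No library had 0 reads of Gm26461, 6 had 1 to 3, and 70 had at least 100, for which the upper bound of the exact (Clopper-Pearson) 95% interval was at most 1.49 times the lower. These intervals cover counting error only. Mitochondrial tRNA, abundant in tissue rich in mitochondria, took a median of 76.4% of reads in heart, 47.7% in liver and at most 29.6% in the other tissues, and piRNA precursors, RNAs of male germ cells, took 3.30% in testis, 0.567% in sperm, 0.377% in cauda and at most 0.0227% elsewhere. No protein-coding marker is among the entries, so other cell types were not analysed here.

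Cauda held 83.2% of all reads of Gm26461, with 144337, against 8.61% in sperm, 4.21% in liver, 2.50% in testis, 0.850% in caput and 0.611% in heart. As a share of the feature reads of a library, Gm26461 averaged 10.8% ± 5.53 in cauda (SD, n = 18), 1.80% ± 1.25 in sperm (n = 19), 0.453% ± 0.671 in liver (n = 17), 0.317% ± 0.253 in testis (n = 19), 0.278% ± 0.447 in caput (n = 19) and 0.0257% ± 0.0434 in heart (n = 19). By its mean level in RPM, which is the reads of an entry per 1000000 reads of the features, it ranked 3 among the 1042 features in cauda, 15 in sperm, 33 in liver, 36 in caput, 54 in testis and 66 in heart. Its mean level was 108401 RPM in cauda and 17999 RPM in sperm, and with the reads of all 1268 entries as the total, names of the same reads included, it was 44211 RPM in cauda and 3105 RPM in sperm. The order of liver, testis and caput rests on means whose SDs exceed the gaps between them, and their medians, at 1593, 2817 and 1275 RPM, fall in another order. Cauda and caput are the 2 ends of 1 duct, and their libraries did not overlap apart from a single cauda library at 3015 RPM. A lower level in a tissue can come from fewer cells that hold the RNA or from less of it per cell. Levels are shares of reads, so they also depend on how much of the library other RNAs take. These cannot be told apart in such samples.

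Single cauda libraries were high in each diet. Cauda had 154638, 88303, 127638 and 104431 RPM on the low-protein diet, against 201578, 222374, 138092, 121528 and 167308 RPM on its control diet. On the high-fat diet it had 119249, 48519, 44946 and 3015 RPM, against 82793, 95622, 64919, 87364 and 78893 RPM on the high-fat control diet. The library at 3015 RPM was high-fat cauda replicate 4, which stood apart from the rest: it was also the deepest cauda library, with 628483 reads, and mitochondrial tRNA took 26.3% of them, the highest share in cauda. The other 17 cauda libraries had at least 44946 RPM. The highest level among the 93 libraries outside cauda was 46643 RPM, in sperm. The 5 control cauda libraries all lay above the 5 high-fat control ones, a difference between the 2 control diets that was not tested.

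Sperm taken from the cauda had less of the RNA than nearly all cauda libraries. The exceptions were the cauda library at 3015 RPM, which lay below 18 of 19 sperm libraries, and that at 44946 RPM, which lay below the highest sperm library. Sperm had 23272, 6062, 2196, 8600 and 11879 RPM on the low-protein diet, against 4199, 11479, 31350, 10378 and 44406 RPM on its control diet. On the high-fat diet sperm had 46643, 23401, 24444 and 22189 RPM, against 11003, 8891, 17365, 10817 and 23406 RPM on the high-fat control diet. Caput had 3310, 1275, 1096, 20181 and 3506 RPM on the low-protein diet, against 664, 1239, 797, 458 and 1473 RPM on its control diet. On the high-fat diet caput had 574, 2622, 4996 and 1737 RPM, against 334, 980, 757, 5339 and 1475 RPM on the high-fat control diet. Low-protein caput replicates 2 and 3, at 1275 and 1096 RPM, rest on 3 reads and 1 read, with exact 95% intervals of 263 to 3721 and 27.8 to 6094 RPM.

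**Figure D3:**
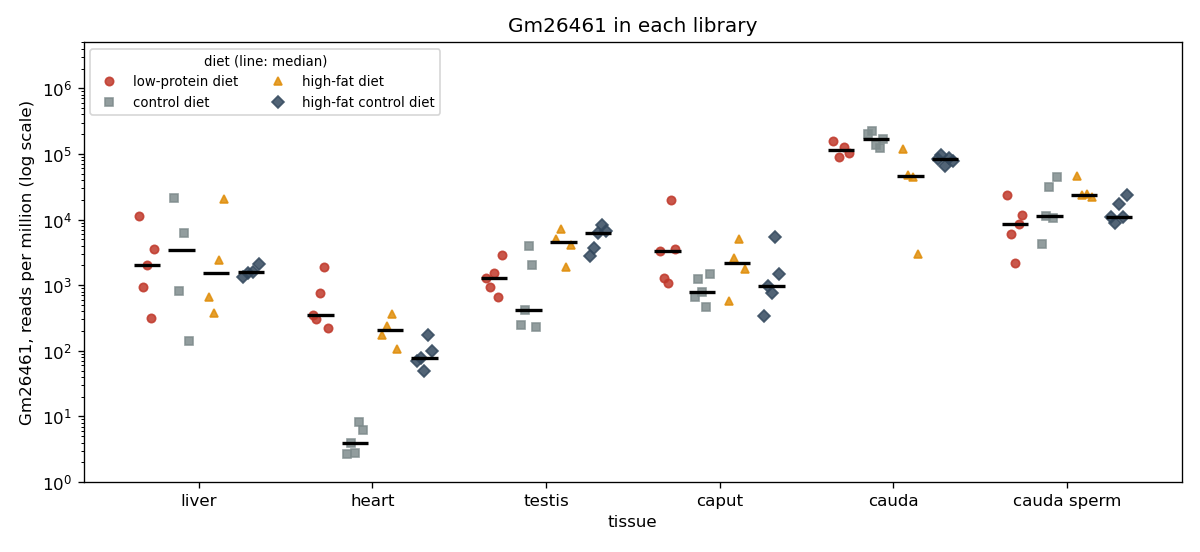
Points give Gm26461 in RPM in each library on a log scale, by tissue and, within a tissue, by diet; lines mark group medians. Cauda libraries lie at the top, between 3015 and 222374 RPM, and the control hearts at the bottom, between 2.64 and 8.16 RPM.

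The balance between the entries Gm26461 and Gm47295 also differed between tissues. The share of Gm26461 in the summed reads of Gm26461 and Gm47295 averaged 90.7% ± 6.57 in cauda (SD, n = 18) and 40.97% ± 13.4 in sperm (n = 19). It averaged 18.5% ± 12.2 in caput (n = 19), 14.7% ± 14.1 in liver (n = 17), 8.69% ± 3.66 in testis (n = 19) and 3.56% ± 1.98 in heart (n = 19). Single libraries ran from 74.3% to 98.5% in cauda, from 20.5% to 79.4% in sperm, from 5.00% to 51.7% in caput, from 1.35% to 52.6% in liver, from 4.79% to 18.8% in testis and from 0.567% to 6.83% in heart. The sperm library at 79.4%, low-protein replicate 3, rests on 27 reads of Gm26461, and it alone among the 93 libraries outside cauda exceeded the lowest cauda library. Gm47295 itself averaged 7858 RPM ± 3482 in cauda, below its 26896 RPM ± 14177 in sperm, 38089 RPM ± 74262 in liver, 31415 RPM ± 21767 in testis and 10024 RPM ± 7511 in caput, and above its 5698 RPM ± 7922 in heart. Gm26461 thus had its highest mean in cauda, while Gm47295 had its lowest but 1 there. The whole entry Rn7s1 averaged 118380 RPM ± 55154 in cauda and 48398 RPM ± 25317 in sperm.

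**Figure D4:**
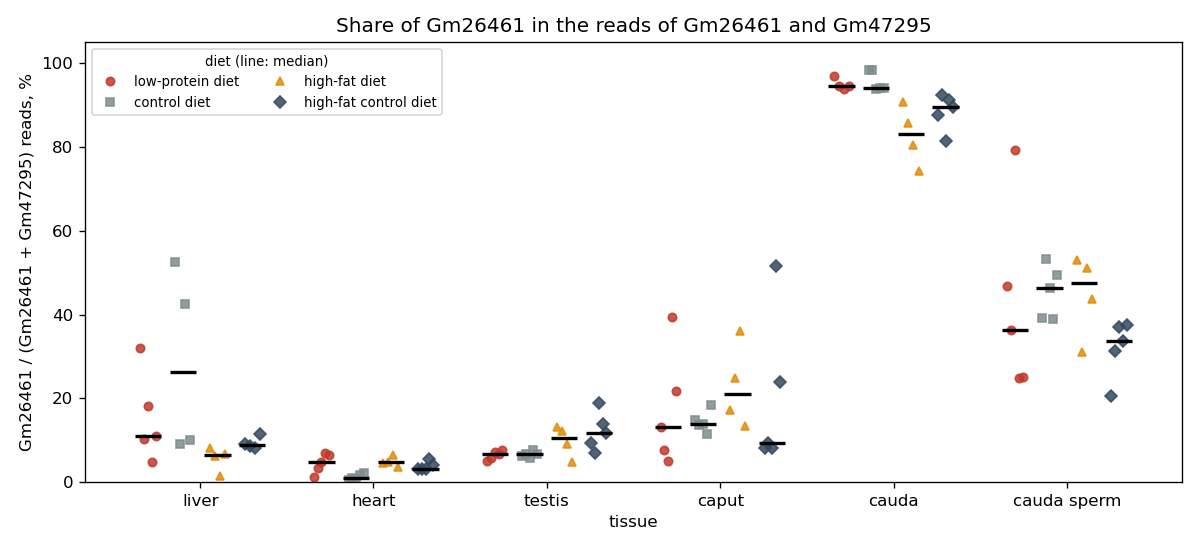
Points give the reads of Gm26461 as a percentage of the summed reads of Gm26461 and Gm47295 in each library, by tissue and diet; lines mark group medians. Cauda libraries lie between 74.3% and 98.5% and heart libraries between 0.567% and 6.83%.

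The features most like Gm26461 were sought by Pearson's correlation over the 24 group means of log2(RPM + 1), among 795 features with at least 50 reads. The groups share the library totals and differ in depth, so the values describe likeness and carry no test. Rn7s1, whose counts cannot be separated from those of Gm26461, came first with r = 0.95. Gm24924 (r = 0.91), Rnu1a1 (0.89), Gm23238 (0.88) and Gm22220 (0.84) followed, all annotated as snRNA genes. Rnu1a1 is a gene of U1 snRNA, which pairs with the 5′ splice site of an intron, and it averaged 12064 RPM in cauda, 4400 in sperm and 90.8 in heart. U1 genes have near-identical copies, so reads of Rnu1a1 may be listed under other names as well. Mitochondrial tRNA-Val and tRNA-Lys were least like it, with r = -0.82 and -0.79. Gm47295 had r = 0.52 and came 227 in the order.

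In heart, the low-protein and control groups that chose the gene did not overlap. Low-protein hearts had 351, 304, 753, 1877 and 226 RPM, from 62, 57, 22, 202 and 106 reads, against 2.64, 3.96, 2.72, 8.16 and 6.13 RPM, from 2, 5, 3, 6 and 9 reads, in control hearts. The means were 702 RPM ± 688 in low-protein hearts and 4.72 RPM ± 2.38 in control hearts (SD, n = 5 each), and the fitted log2 difference was 6.76 ± 0.60 (SE). In that contrast 75.2% of all features tested passed an adjusted p of 0.05, and 33.5% passed and were higher. High-fat hearts, with 174, 238, 368 and 105 RPM, and high-fat control hearts, with 69.5, 77.2, 48.6, 177 and 100 RPM, also all lay above the control hearts. The control hearts were therefore below each of the other 14 hearts, the lowest of which had 48.6 RPM. They were also the deepest, with 735211 to 1467880 reads against 29211 to 470061 in low-protein hearts, and the part of depth was not tested.

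Other entries differed between low-protein and control hearts in the same direction, and since the contrast chose Gm26461 their values are given without a test. Gm47295 averaged 15674 RPM ± 10231 in low-protein hearts and 384 RPM ± 84.4 in control hearts, and its fitted log2 difference was 5.09 ± 0.60 (SE). That of Rn7s1 was 5.12 ± 0.60, that of Rn7s6 was 3.79 ± 0.53 and that of Rnu1a1 was 4.17 ± 0.50. Among other RNAs of RNA polymerase III, it was 3.82 ± 0.50 for Rn7sk, the RNA that holds the elongation factor P-TEFb inactive, 4.65 ± 0.53 for Rmrp, the RNA of RNase MRP, and 3.98 ± 0.52 for Vaultrc5, a vault RNA. It was 3.83 ± 0.56 for Gm25018, which stands for 5S ribosomal RNA, and smaller for the Y RNAs, at 2.28 ± 0.52 for Rny3 and 1.69 ± 0.45 for Rny1. Gm26461 made up 1.32% to 6.83% of the reads of Gm26461 and Gm47295 in low-protein hearts and 0.567% to 2.28% in control hearts. Gm24245 averaged 1862 RPM ± 3535 in cauda, with 12804 RPM in control cauda replicate 1 and 0 in control cauda replicate 5. It was at 0 in 5 of 5 low-protein and 5 of 5 control hearts, which says little for an RNA so uneven in cauda itself. Gm22220, at 1254 RPM ± 722 in cauda, was at 0 in 3 of 5 low-protein and 5 of 5 control hearts and at most 9.29 RPM. The 2 other RNAs noted for cauda or sperm differed like Gm26461: Gm23935 averaged 508 RPM ± 269 in low-protein hearts and 14.7 RPM ± 3.41 in control hearts (log2 difference 4.79 ± 0.52, SE), and Gm23472 averaged 7436 RPM ± 5389 in low-protein hearts and 617 RPM ± 147 in control hearts (3.25 ± 0.55). Mitochondrial tRNA took 36.7% to 87.3% of reads in low-protein hearts and 74.7% to 78.0% in control hearts, and its part in the difference was not tested.

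The levels in caput, cauda and sperm helped choose the gene, so diet tests on those same libraries are not fully independent of the choice. Among the contrasts that did not choose the gene, Gm26461 rose in caput on the low-protein diet. It averaged 5874 RPM ± 8076 in low-protein caput and 926 RPM ± 419 in control caput (SD, n = 5 each), a fitted log2 difference of 2.69 ± 0.72 (SE) with an adjusted p of 0.00410 (edgeR's quasi-likelihood test, Benjamini-Hochberg over all features tested). The groups overlapped: 3 of 5 low-protein libraries lay above the highest control library, and 41.4% of the features tested passed in that contrast and 14.5% passed and were higher, while the median log2 difference of all features tested was -0.44. The call rests on low-protein replicate 4, at 20181 RPM: without it the log2 difference was 1.53 and the adjusted p 0.179. Without the libraries under 5000 reads it was 3.25. Low-protein caput libraries were shallower, with 912 to 16203 reads against 13726 to 85848 in control caput, and mitochondrial tRNA took 15.0% to 33.7% of them against 35.2% to 52.4%, with no overlap. Gm24245 was at 0 in 3 of 5 low-protein and 2 of 5 control libraries of caput, at most 184 and 30.5 RPM, and Gm22220 was at 0 in 3 and in 2, at most 123 and 72.9 RPM. Gm23935, high in sperm at 67155 RPM, rose by 2.61 ± 0.47 (SE, adjusted p 2.11e-05 by edgeR), with 1761 RPM ± 911 in low-protein caput and 242 RPM ± 75.8 in control caput, and Gm23472 averaged 5098 RPM ± 2026 in low-protein caput and 6149 RPM ± 1774 in control caput. The part of these differences in the result was not tested.

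Both other 7SL entries tested in caput, Rn7s1 and Gm47295, rose on the low-protein diet as well, with log2 differences of 1.82 ± 0.45 (SE, adjusted p 0.000854) and 1.67 ± 0.44 (adjusted p 0.00154) by edgeR. Rn7s1 is no independent evidence, since its counts nearly equal the sum of Gm26461 and Gm47295. Gm47295 averaged 20346 RPM ± 7136 in low-protein caput and 5324 RPM ± 1805 in control caput. Of 4 other polymerase III entries tested there, 3 rose, in a contrast in which 41.4% of all features passed and 14.5% passed and were higher. Rny3, a Y RNA that binds the protein Ro60, rose by 2.13 ± 0.55 (adjusted p 0.00123 by edgeR). Gm25018, which stands for 5S ribosomal RNA, rose by 1.25 ± 0.44 (adjusted p 0.0196 by edgeR) and Rn7sk by 1.19 ± 0.44 (adjusted p 0.0241 by edgeR). Rny1, another Y RNA, gave -0.14. The share of Gm26461 in Gm26461 and Gm47295 averaged 17.4% ± 13.8 in low-protein caput and 14.5% ± 2.59 in control caput, and the exact permutation test gave p = 0.762 (two-sided). A difference in share was thus not detectable in 5 libraries each.

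In liver, testis, cauda and sperm, the low-protein and control groups overlapped and Gm26461 did not pass. The low-protein livers had 11309, 925, 2021, 314 and 3576 RPM, against 21260, 811, 6142 and 143 RPM in control livers. The fitted log2 difference in liver was -0.81 ± 1.10 (SE), with a 95% interval of -2.96 to 1.34 and an adjusted p of 0.638 by edgeR, in a contrast in which 35.6% of features passed. In testis, low-protein libraries had 1289, 939, 1532, 667 and 2930 RPM, against 247, 424, 3927, 2009 and 231 RPM in control libraries. The log2 difference in testis was -0.17 ± 0.48 (interval -1.12 to 0.78, adjusted p 0.949 by edgeR, 0.0% of features passing). In cauda, where the RNA is most abundant, the mean was 118753 RPM ± 28862 on the low-protein diet (SD, n = 4) and 170176 RPM ± 42175 on its control diet (n = 5). That log2 difference was -0.76 ± 0.54 (interval -1.83 to 0.30, adjusted p 0.360 by edgeR, 0.0% passing), and 2 of 4 low-protein libraries lay below the lowest control library. In sperm the means were 10402 RPM ± 8019 on the low-protein diet and 20362 RPM ± 16872 on its control diet, with a log2 difference of -0.86 ± 0.69 (interval -2.20 to 0.49, adjusted p 0.987 by edgeR, 0.0% passing).

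No high-fat contrast passed for Gm26461, and the intervals of several allow large differences. The high-fat livers had 671, 373, 2418 and 20396 RPM, against 1355, 1532, 1593 and 2113 RPM in high-fat control livers. The log2 difference in liver was 3.53 ± 1.30 (SE, interval 0.98 to 6.07, adjusted p 0.0953 by edgeR, 2.93% of features passing), beside a median of 1.06 over all features tested. Its size depends on the processing: apart from single libraries left out, it ran from 1.67 to 3.91 over the alternatives. The group medians were 1545 RPM on the high-fat and 1562 RPM on the high-fat control diet. The fitted difference rests on high-fat replicate 4, at 20396 RPM, without which it was -0.19, and without high-fat replicate 2 the adjusted p was 0.0480. The other 7SL entries Rn7s1 and Gm47295 rose in high-fat liver, by 4.04 ± 1.11 and 4.10 ± 1.08 (adjusted p 0.0462 for both by edgeR), and 2 more did not pass. The group was split: Rn7s1 had 8208, 6137, 180169 and 300922 RPM in high-fat livers, against 15037 to 20385 RPM in high-fat control livers, so that replicates 1 and 2 lay below all high-fat control livers and replicates 3 and 4 above them. Replicates 3 and 4 of that group, with 827 and 51432 reads, were also the lowest in mitochondrial tRNA, at 15.7% and 11.6% against 65.5% and 71.3% in replicates 1 and 2, and its part in these values was not tested.

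In heart, high-fat libraries averaged 221 RPM ± 112 (SD, n = 4) and high-fat control libraries 94.5 RPM ± 49.6 (n = 5). The log2 difference in heart was 1.37 ± 0.51 (SE, interval 0.37 to 2.37) with an adjusted p of 0.118 by edgeR, 1.24% of features passing. The call moved with single libraries: without high-fat replicate 1 or 4 the adjusted p was 0.0265 or 0.0312. High-fat testis had 4994, 7213, 1882 and 4113 RPM, against 2817, 3741, 6148, 8397 and 6662 RPM in high-fat control testis, a log2 difference of -0.21 ± 0.52 (interval -1.23 to 0.81, adjusted p 0.879 by edgeR, 0.0% passing). In caput the difference was 0.45 ± 0.71 (interval -0.93 to 1.84, adjusted p 0.695 by edgeR, 0.69% passing). It was 1.89 without high-fat control replicate 4 (adjusted p 0.260) and -0.00946 without high-fat replicate 3, neither of which passed. In cauda it was -0.95 ± 0.55 (interval -2.02 to 0.12, adjusted p 0.623 by edgeR, 0.0% passing). Cauda averaged 53932 RPM ± 48197 on the high-fat diet and 81918 RPM ± 11362 on its control diet, with 3 of 4 high-fat libraries below the lowest control library and 1 above the highest. Sperm averaged 29169 RPM ± 11686 on the high-fat diet and 14296 RPM ± 6012 on its control diet, a log2 difference of 1.28 ± 0.72 (interval -0.13 to 2.69, adjusted p 0.927 by edgeR, 0.0% passing).

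**Figure D5:**
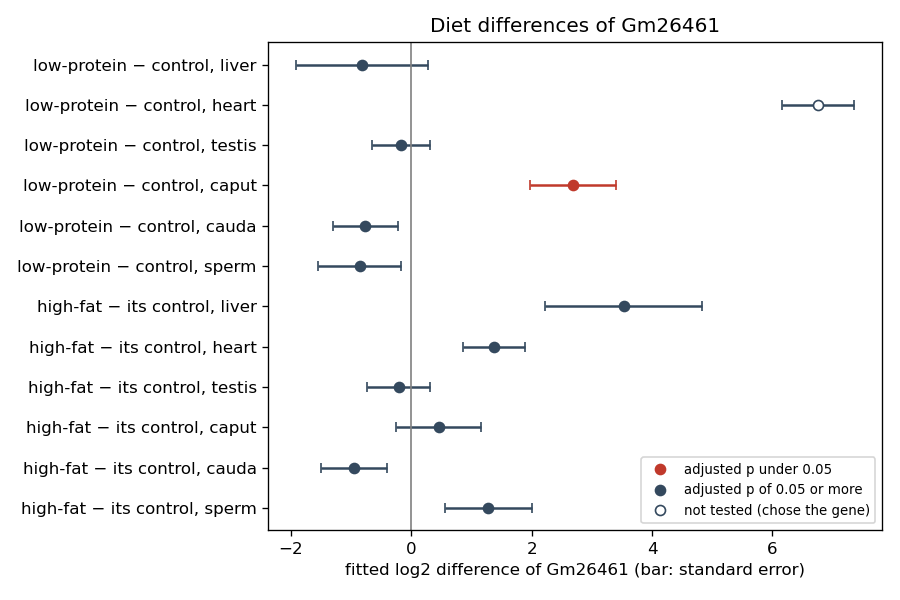
Points give the fitted log2 difference of Gm26461 for each tissue, low-protein minus control diet and high-fat minus high-fat control diet, with bars of 1 standard error; the open point is the heart contrast that chose the gene. Low-protein caput, at 2.69, is the contrast that passed among the 11 tested.

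Whether a diet's difference itself varied among tissues was tested with an interaction term. All libraries were fitted as independent, although tissues may come from the same mice, which the labels do not say. For the high-fat diet over 6 tissues the adjusted p of Gm26461 was 0.158, with 3.17% of 379 features passing, and for the low-protein diet over the 5 tissues other than heart it was 0.130, with 14.8% of 385 passing (edgeR's quasi-likelihood test). Without the filter on low counts these became 0.0364 and 0.0177. The rise in caput is therefore not shown to be particular to caput. The share of Gm26461 in Gm26461 and Gm47295 was compared in the same 11 contrasts by two-sided exact permutation tests. The smallest p was 0.0571, in liver, with 5.62% ± 2.98 on the high-fat and 9.29% ± 1.45 on the high-fat control diet (SD, n = 4 each), where the smallest p possible is 0.0286. The next was 0.0794, in sperm, with 44.7% ± 9.91 on the high-fat diet and 32.003% ± 6.92 on its control diet (n = 4 and 5, exact permutation test). Both had an adjusted p of 0.437 over the 11 contrasts, and none passed.

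The other 7SL and polymerase III entries passed in few of the tested contrasts. Outside low-protein caput and high-fat liver, 0 of the 2 to 6 other 7SL entries in each tested contrast passed in edgeR's test. Of the polymerase III entries, 2 of 6 rose in low-protein liver, Rny1 by 3.13 ± 0.74 (SE, adjusted p 0.00246 by edgeR) and Vaultrc5 by 2.47 ± 0.84 (adjusted p 0.0228 by edgeR). In that contrast 35.6% of all features passed, and 20 of the 205 tested passed and were higher. None of the polymerase III entries passed in testis, cauda, sperm or any high-fat contrast. In cauda on the low-protein diet, Rn7s6 gave 1.50 ± 0.57 (adjusted p 0.130) beside -0.76 for Gm26461 and -0.13 for Gm47295, and the difference between these entries was not tested. Over all features, edgeR called 0 in testis and cauda on either diet and 0 in sperm. At an unadjusted p under 0.05 there were 39 in low-protein and 19 in high-fat testis, 45 and 18 in cauda, and 0 and 6 in sperm, and DESeq2 called 16 features in low-protein cauda and 2 in high-fat testis.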

How the data were processed

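Per the labels, small RNA was copied by OTTR-seq from total RNA treated with polynucleotide kinase. The authors deposited 1 table of unnormalized read counts, whole numbers for each RNA name and library. The build mm10 and the tools cutadapt and DESeq2 are named in the submitters' processing notes. The aligner, the counting rule, the use of strand and the meaning of gt65 in column names were not given in the sources used here.

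Titles of the samples gave tissue, diet and replicate number. From 1268 entries, 22 second names of mitochondrial tRNAs, 54 of 55 entries of 5S ribosomal RNA and 150 entries that differed from a kept one by under 5.0% of its reads were removed, which left 1042 features with 51.1% of the counts. Levels are RPM over these features. The members, lists and named entries were chosen with earlier results of these data known, and the RNAs most like Gm26461 were taken as the 5 features with the highest correlation and the lowest 2.

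Each tissue was fitted over its 4 diets with edgeR 4.0.16 (R 4.3.3, TMM factors, filterByExpr, robust quasi-likelihood test), with Benjamini-Hochberg adjustment over all features tested and a threshold of 0.05. On simulated data for testis on the low-protein diet (419 features), 51 of 52 changes of 4-fold and 17 of 46 of 2-fold were recovered, and 2.86% of calls were false. The simulated counts had the same fixed spread for all features and no outlying library. These rates therefore check the fitting steps only and do not give the power to detect a change of Gm26461. The share of Gm26461 in Gm26461 and Gm47295, a measure chosen after seeing the data, was compared by exact permutation tests (scipy 1.17.1). Transcripts of GENCODE M21 were aligned with Biopython 1.88; their sequences are not reported here. Alternatives were RLE factors, total counts, no filter on low counts, all entries kept, DESeq2 1.42.0, a replicate block, each library left out and, chosen after seeing the data, the libraries under 5000 reads left out. Libraries with the same replicate number in their titles passed a rule for pairing (every r over 0.1) in 2 of 12 contrasts. These were high-fat caput (lowest r 0.110) and high-fat cauda (0.127). A library was most like its own number in 3 of 4 cases in high-fat caput but 1 of 4 in high-fat cauda. In high-fat liver, below the rule at a lowest r of 0.085, it was 4 of 4, so the pairing is not settled. The title numbers, which the block used, differ from the library-name numbers in control liver, high-fat control liver and low-protein cauda. No label says what a number marks.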

Additional observations from a re-analysis of the deposited data

Results flagged for a closer look

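In 4 groups, 1 library lay further from its group in RPM of Gm26461 than Dixon's limit for the group's size. Low-protein caput replicate 4 had 20181 RPM, with 3506 in the next library. High-fat control caput replicate 4 had 5339 RPM, with 1475 in the next. High-fat liver replicate 4 had 20396 RPM, with 2418 in the next. High-fat sperm replicate 1 had 46643 RPM, with 24444 in the next. These came from 48 tests, 24 groups for each of RPM and the share of Gm26461 in Gm26461 and Gm47295. Chance flags about 1 in 20 of such tests if the values are normally distributed, which was not checked for RPM. All 4 flags were high values of RPM, and no group was flagged for the share. The contrasts of low-protein caput and high-fat liver change without these libraries, as given with them, and the high-fat log2 difference in caput was 1.89 (adjusted p 0.260 by edgeR) without high-fat control replicate 4, against 0.45 with it.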

How the results depend on the processing

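The low-protein rise in caput passed under every alternative run other than leaving out low-protein replicate 4; apart from single libraries left out, its log2 differences ran from 2.08 to 3.25 (adjusted p 4.83e-05 to 0.0257). Signs turned, without a call on either side, in high-fat testis with the replicate block (0.0514) and in low-protein testis with total counts (0.12). With all entries kept, the heart difference was 5.64. With the reads of all entries as denominator, the mean level was 44211 RPM in cauda and 3105 RPM in sperm. Without the filter on low counts the interaction terms had adjusted p of 0.0364 and 0.0177, and over all their alternatives 0.0364 to 0.457 and 0.0177 to 0.338.

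With each library left out in turn, the log2 differences of the low-protein contrasts ran from -1.34 to 0.32 in liver, from 6.59 to 7.39 in heart, from -0.48 to 0.41 in testis, from 1.53 to 3.26 in caput, from -1.01 to -0.51 in cauda and from -1.63 to -0.34 in sperm. Those of the high-fat contrasts ran from -0.19 to 3.91 in liver, from 0.98 to 1.71 in heart, from -0.50 to 0.0339 in testis, from -0.00946 to 1.89 in caput, from -1.64 to -0.50 in cauda and from 0.79 to 1.48 in sperm. Differences in share ran from -0.396 to 0.255 percentage points in low-protein testis, from -2.56 to 6.03 in low-protein caput, from -12.1 to 1.47 in low-protein sperm and from -1.71 to 10.5 in high-fat caput. The sign turned without high-fat replicate 4 in liver, high-fat replicate 3 in caput and in testis, control replicate 1 in liver and control replicate 3 in testis.

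The replicate block, by title number, changed no call of Gm26461. With it the log2 difference was 1.06 (adjusted p 0.344 by edgeR) in high-fat caput and -1.38 (adjusted p 0.392 by edgeR) in high-fat cauda. The count of called features was 47 in low-protein liver in place of 73, 7 in low-protein cauda in place of 0, and 0 in high-fat liver in place of 6. Counts of called features also moved past 1.5 times elsewhere. With all entries kept they were 7 in high-fat caput, 140 in low-protein caput, 14 and 1 in high-fat and low-protein cauda, 0 in high-fat heart and liver and 283 in low-protein heart. With no filter they were 38 and 11 in high-fat and low-protein cauda, 291 in low-protein heart and 128 in low-protein liver. DESeq2 called 8 in high-fat caput, 0 in high-fat heart and 18 in high-fat liver. RLE factors and total counts gave 6 each in high-fat caput, 3 each in low-protein cauda, and 0 and 2 in high-fat liver. Without the libraries under 5000 reads there were 0 in high-fat caput and 22 in high-fat liver. Depth limits the libraries with 1 to 3 reads of Gm26461 most.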
